A study of Mus musculus with 12 samples.

Results

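The injured spinal cord of mice with intact ovaries was described here from the 4 libraries of the SCI7 group, which are 4 of the 12 libraries of the series. All 57180 genes of the deposited TPM table were read in those 4 libraries, and the choice of libraries rests on the group label alone. The mice were female C57BL/6J wild types that received a clip-compression injury at T9-T10 and no ovariectomy. Cord was taken 7 days after injury and included the lesion with about 0.5 cm on its rostral and caudal sides. Their label age is 8 weeks, with no word on whether that is age at injury or at collection. The other 8 libraries, 4 from each of 2 ovariectomy groups (OVX2_SCI7 and OVX8_SCI7), entered no value below. All libraries carry the same batch label. No uninjured cord was analysed here, so no value below is a change caused by injury. The labels call the 4 libraries biological replicates, and values in groups of 4 are given in the order of replicates 1 to 4.

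A contused cord at 1 week holds a core without neural cells, filled by macrophages derived from blood monocytes and from microglia, and a rim of surviving tissue in which astrocytes become reactive. Macrophages in the core take up myelin debris, and perivascular fibroblasts enter the core and lay down collagen and fibronectin, which with the astrocyte border form the scar. A block of tissue that spans the lesion therefore mixes core, border and spared cord. In such bulk tissue, fewer cells of a type and less RNA per cell cannot be told apart.

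The libraries held 18222809 to 20524251 estimated counts and 16018 to 16723 genes at 1 TPM or more (TPM scales transcripts for length and to a fixed total per library). A count of 0 allows up to 3 counts, which is 0.146 to 0.165 CPM here (counts scaled to library size), and this limit covers counting error only. Transcripts of the mitochondrial genome took 17.7, 14.3, 18.0 and 11.3% of TPM, and unprocessed pseudogenes, led by nuclear copies of mitochondrial genes, took 11.8, 9.67, 11.5 and 7.36%. Nuclear protein-coding genes took 66.9, 72.2, 66.9 and 77.5%, so a nuclear gene has less room in replicates 1 and 3 than in replicate 4. Across 13173 protein-coding genes, a library's deviation from the gene's mean of the 4 libraries had a Spearman correlation with GC content of -0.14, -0.24, -0.05 and 0.25, and with transcript length of -0.44, 0.26, 0.19 and -0.11. These genes share their libraries and are not independent. Under the other scalings or with this trend removed, the sign of the difference between replicates 4 and 3 turned for 3 of 38 gene lists and 20 of 265 genes, none of which differed by more than 0.32 on the log2 scale.

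Myelin, iron-storage and macrophage genes stood at the top of the lesion's nuclear transcripts. Among 43389 genes outside the mitochondrial genome and outside pseudogenes, the 15 highest by mean TPM, leaving out ribosomal protein and predicted genes, began with Mbp, Fth1, Apoe and Spp1. Mbp, the myelin basic protein, averaged 10491 ± 867 TPM (mean ± SD, n = 4). Fth1, the heavy chain of ferritin, averaged 10388 ± 1528 TPM. Apoe, the lipid carrier of astrocytes and phagocytes, averaged 8581 ± 3397 TPM and ranked 3. Eef1a1, a translation elongation factor, Ctsd, a lysosomal protease, Gfap, the filament of astrocytes, Lyz2, the lysozyme of macrophages, and Tmsb4x, an actin-binding peptide, took ranks 6 to 10. Ftl1, Ctsb, Psap, Sparc and Mobp followed at ranks 11 to 15, so lysosomal and iron-storage genes stood beside myelin genes.

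The libraries were compared in the same way for every gene list. A gene was called apart when its highest library was at least 2-fold above its lowest, among 14116 genes with a mean of at least 1 TPM and 50 counts. Of these genes 3839, or 27.2%, were apart. The highest library was replicate 4 for 43.2% of genes and replicate 3 for 36.5%, against 4.95% for replicate 1 and 15.4% for replicate 2. The lowest library was replicate 1 for 38.7% of genes, replicate 3 for 29.4%, replicate 4 for 22.9% and replicate 2 for 8.96%. Of all 14116 genes, 10.9% were apart with replicate 4 highest and replicate 3 lowest, and 7.95% were apart in the opposite sense. No test between groups was made, because 1 group of 4 libraries holds no contrast. The plot of list levels shows 27 lists of marker and state genes, 348 genes in all of 349 listed, of which 294 passed the level minimum.

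**Figure D1:**
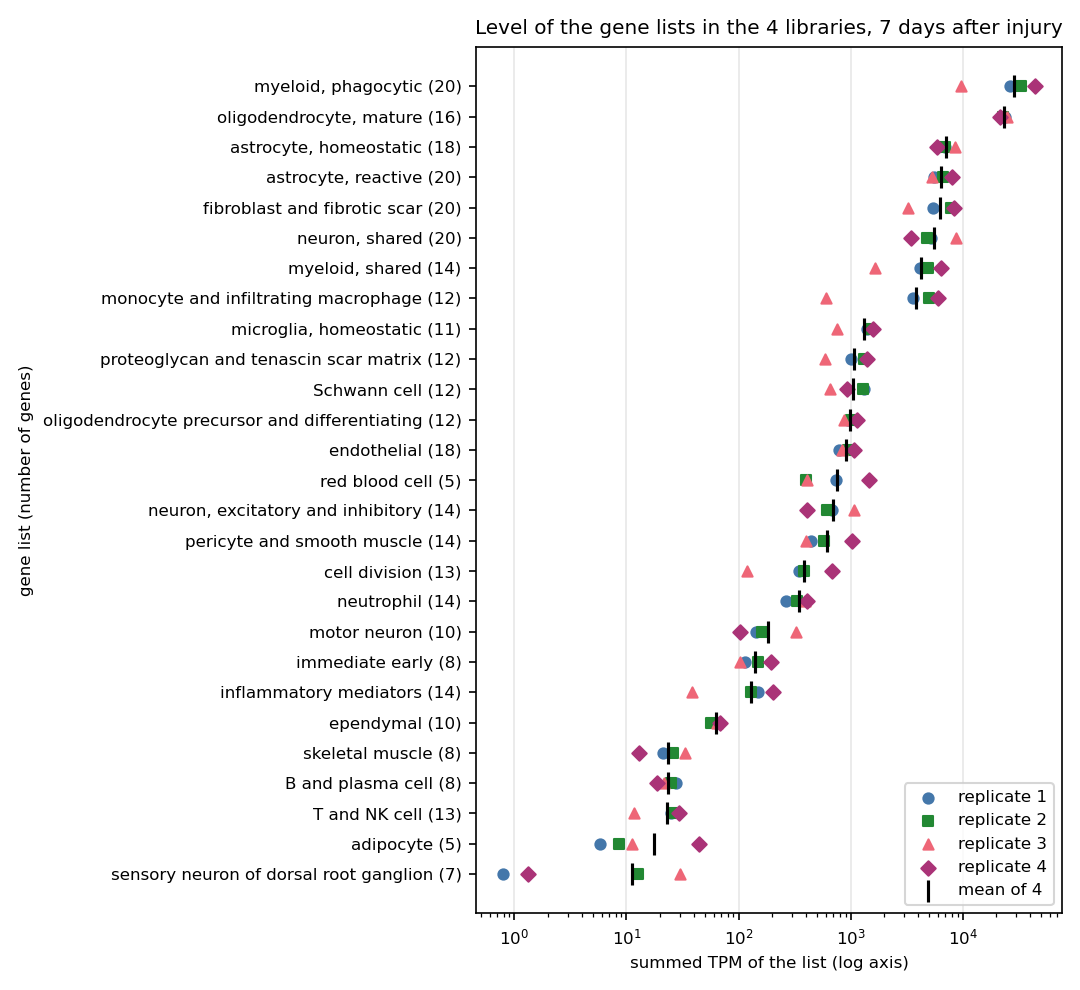
Summed TPM (x axis, log scale) of 27 gene lists (y axis, number of genes in parentheses), with 1 coloured marker per replicate and a black bar at the mean of 4. The mature oligodendrocyte markers lie nearly on top of each other between 21499 and 24855 TPM, while the phagocytic myeloid list runs from 9626 in replicate 3 to 44488 in replicate 4.

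Mature oligodendrocytes gave the steadiest of the abundant lists. Their 16 genes summed to 24019, 22731, 24854 and 21499 TPM (23276 ± 1472), a highest-to-lowest ratio of 1.16, and 0 of 16 were 2-fold apart, against 27.2% of all genes. Mbp stood at 10728, 9609, 11593 and 10035 TPM, so Mbp was within 1.21-fold in every pair of libraries. Mog, a protein of the outer myelin surface, stood at 192, 174, 182 and 159.9 TPM, and Mag, the adhesion protein of the inner myelin layer, at 529.7, 566, 539 and 596. Mobp, a small basic protein of compact myelin, stood at 2089, 2038, 2963 and 1925 TPM, with replicate 3 above the others. Ermn, a cytoskeletal protein of myelin sheaths, had the widest ratio of the list, 1.80, with 222, 181, 238 and 132 TPM. Of the 16 genes, 11 were lowest in replicate 4, as 22.9% of all genes were.

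Precursors and newly forming oligodendrocytes summed to 955, 1002, 878 and 1137 TPM, and 1 of 12 genes was 2-fold apart. Pdgfra, the growth factor receptor of precursors that fibroblasts also carry, stood at 23.7, 40.6, 21.1 and 42.1 TPM, a ratio of 2.00, just under 2 before rounding. Cspg4, the NG2 proteoglycan of precursors and pericytes, was the gene past 2-fold, at 9.23, 16.4, 7.44 and 30.1 TPM. Both genes have a second cell source in this tissue. The lineage factors Olig1, Olig2 and Sox10, the last of which Schwann cells also express, differed by ratios of 1.19, 1.19 and 1.26. Bcas1, which marks oligodendrocytes at the start of myelination, was the most abundant of the list at 423, 427, 381 and 519.6 TPM. Olig1 and Olig2 were slightly higher in replicate 4 than in replicate 3, by 0.20 and 0.06 on the log2 scale. The direction turned for Olig1, to -0.01 and -0.02, when only nuclear protein-coding genes were counted or the GC and length trend was removed. For Olig2 it turned, to -0.14 and -0.20, in these settings and, to -0.05, without the mitochondrial genome.

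Schwann cell genes, which mark the myelin of nerve roots, summed to 1312, 1292, 649 and 932 TPM, with replicate 3 lowest. Pmp22, a membrane protein of peripheral myelin, stood at 585, 586, 297 and 419 TPM and Prx, the periaxin of mature Schwann cells, at 21.9, 23.7, 13.7 and 21.4. Replicates 1 and 2 lay above replicates 3 and 4 for Pmp22. Pmp2, a fatty acid carrier of peripheral myelin, had the widest ratio, 5.40, and Ncmap the narrowest, 1.12. Of 12 genes, 3 were 2-fold apart (25.0%, near the 27.2% of all genes).

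Ependymal genes were low and steady, summing to 63.2, 56.5, 64.3 and 68.5 TPM. Foxj1, the regulator of motile cilia, stood at 11.2, 10.6, 14.3 and 14.4 TPM. Of 10 genes only 4 passed the level minimum, and 1 of these, Cfap126, was 2-fold apart.

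Astrocyte genes split into a homeostatic set that was highest in replicate 3 and a reactive set that was highest in replicate 4. The 18 homeostatic genes summed to 6912, 6913, 8515 and 5933 TPM, with 14 of 18 highest in replicate 3 and 15 of 18 lowest in replicate 4. Over all genes, 36.5% were highest in replicate 3 and 22.9% lowest in replicate 4. Only Gjb6 and Ntsr2 were 2-fold apart, a smaller share (11.1%) than among all genes. Slc1a2, the glutamate transporter GLT-1, stood at 268, 359, 489 and 267 TPM, and Slc1a3, the transporter GLAST, at 59.1, 59.2, 83.3 and 54.5. Aqp4, the water channel of astrocyte endfeet, stood at 911, 947, 829 and 686 TPM and Gja1, the connexin of astrocyte gap junctions, at 401, 377, 446 and 341. Aqp4 did not share the high value in replicate 3, whereas the transporters did. Clu, a secreted chaperone, was the most abundant of the list at 1004, 927, 1407 and 837 TPM and ranked 43.

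The 20 reactive genes summed to 5594, 6615, 5371 and 7989 TPM, and 57.7% of that sum was Gfap. Gfap itself was nearly constant at 3495, 3784, 3564 and 3912 TPM, a ratio of 1.12. Its small excess of replicate 4 over replicate 3, 0.13 on the log2 scale, turned to -0.08 when only nuclear protein-coding genes were counted and to -0.15 when the GC and length trend was removed. The other genes of the list moved far more. Vim, an intermediate filament that macrophages, fibroblasts and vessels also contain, stood at 967, 1204, 581 and 2153 TPM, and Timp1, an inhibitor of matrix proteases, at 53.2, 59.1, 22.4 and 149. Nes, the filament of progenitors and reactive astrocytes, stood at 12.3, 20.1, 13.5 and 37.3 TPM. Tgm1, a protein-crosslinking enzyme, had the widest ratio, 7.69. In all 12 of 20 genes were 2-fold apart, 17 were highest in replicate 4 and 7 were apart with replicate 4 highest and replicate 3 lowest. Lcn2, an iron-binding acute-phase protein, followed another order, 26.1, 42.6, 56.1 and 56.2 TPM, with replicate 1 lowest and replicates 3 and 4 nearly equal. Which of these 2 was the higher for Lcn2 depended on the scaling, since their log2 difference of 0.0010 was -0.02 to -0.43 under 5 of the alternatives. Serpina3n, a protease inhibitor of reactive astrocytes, was the second most abundant after Vim among the members other than Gfap at 535, 738, 585 and 783 TPM and differed by a ratio of 1.46.

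**Figure D2:**
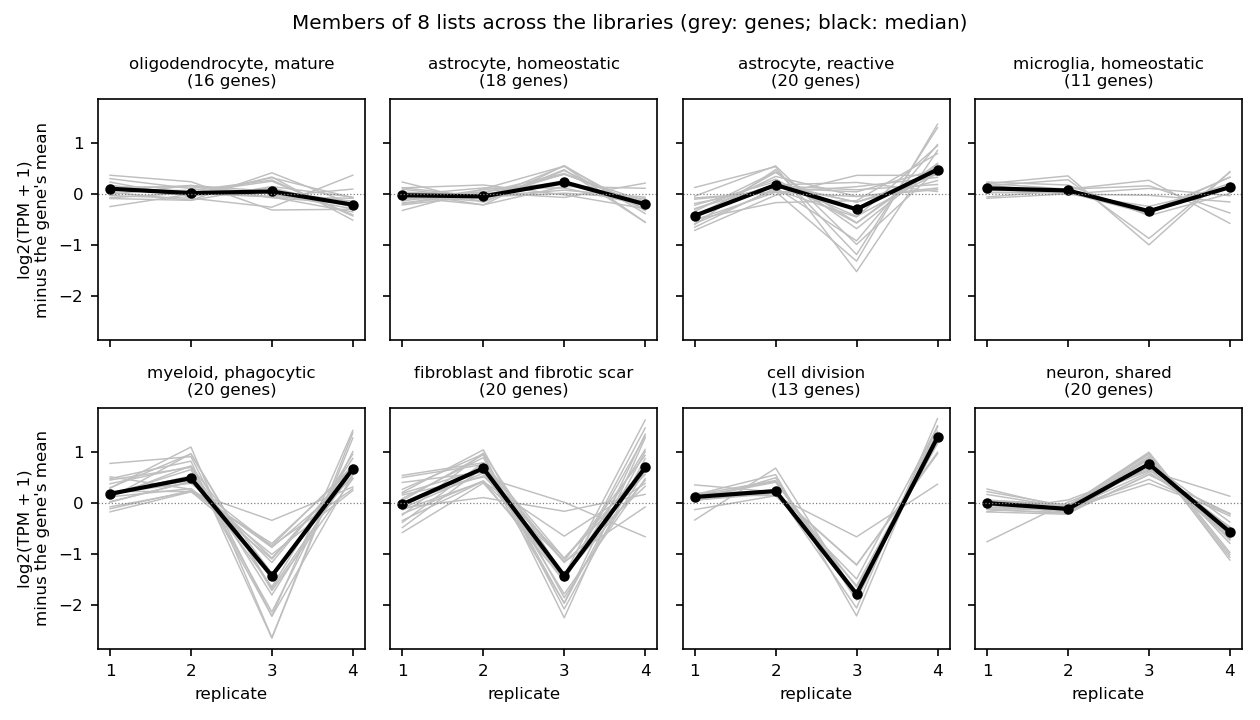
Deviation of log2(TPM + 1) from each gene's mean of 4 libraries (y axis, log2 units) for each replicate (x axis) in 8 lists, with 1 grey line per gene and the list median in black. Replicates have no order, and lines only join values of a gene. Myelin genes stay near 0, and neuronal genes peak in replicate 3. Homeostatic microglial genes dip there to a median of -0.34, less than phagocytic (-1.43), scar (-1.43) and cell division genes (-1.79).

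The phagocytic myeloid list was the most abundant by the mean of the 4 libraries and among the most variable. The mature oligodendrocyte list lay above it in replicate 3, and the ranges of the lists overlapped. Apoe, which astrocytes also express, made up 30.1% of the mean sum, so the list's level is not that of macrophages alone. The 20 genes, which mark microglia and macrophages that handle lipid and debris, summed to 26386, 33346, 9626 and 44488 TPM. That is 4.62-fold more RNA share in replicate 4 than in replicate 3. Of 20 genes, 19 were 2-fold apart and 13 were apart with replicate 4 highest and replicate 3 lowest, against 27.2% and 10.9% of all genes. Spp1, osteopontin, stood at 7330.2, 9302, 839.8 and 13629.6 TPM, from 10522 to 178221 estimated counts. Its 16.2-fold ratio took it from rank 1 in replicate 4, above Mbp, to rank 54 in replicate 3. Apoe stood at 7607, 9334, 4623 and 12758 TPM, Ctsd at 3792, 4857, 1075 and 6530.4 and Ctsb, a cysteine protease of lysosomes, at 2384, 3125, 1042 and 3925. Replicate 3 was lowest for all of these and replicate 4 highest. Gpnmb, a glycoprotein of lipid-laden macrophages, stood at 787, 1379, 103 and 1557 TPM, and Lgals3, galectin-3, at 323, 384, 52.9 and 475. Trem2, the lipid-sensing receptor, stood at 158, 189.6, 49.3 and 256 TPM. The receptor and the genes named with it kept the order 4, 2, 1, 3, which 14 of 20 members and 18.0% of all genes showed. Axl, a receptor for dying cells, was the member under 2-fold, with a ratio of 1.58.

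The promoters of 3 of these abundant genes are shown because their transcripts moved together across the libraries. Each window holds the 250 bases before the annotated start of the gene in the RefSeq table of build GRCm38.p6 (the authors' tables use GRCm39), read 5′ to 3′ on the gene's strand. The Spp1 window is chr5:104434861-104435110 on the + strand and is the more upstream of 2 listed. The Ctsd window is chr7:142387828-142388077 on the - strand, and the Lyz2 window is chr10:117282273-117282522 on the - strand. Capitals mark matches on either strand to AGGAAGT, the core bound by ETS factors such as PU.1 of myeloid cells, to CACGTG, the E-box core that TFEB and related factors of lysosomal genes bind, and to GGGCGG, the GC box.
Spp1: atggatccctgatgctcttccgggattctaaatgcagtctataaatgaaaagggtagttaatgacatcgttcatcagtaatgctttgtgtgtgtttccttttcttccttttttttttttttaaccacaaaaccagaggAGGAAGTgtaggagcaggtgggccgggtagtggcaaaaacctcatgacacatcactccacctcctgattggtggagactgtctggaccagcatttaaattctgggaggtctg
Ctsd: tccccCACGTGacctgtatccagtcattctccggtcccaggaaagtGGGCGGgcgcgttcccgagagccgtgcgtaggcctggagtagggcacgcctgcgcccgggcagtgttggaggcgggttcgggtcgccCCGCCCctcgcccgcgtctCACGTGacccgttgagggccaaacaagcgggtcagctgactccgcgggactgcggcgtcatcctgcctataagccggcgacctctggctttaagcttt
Lyz2: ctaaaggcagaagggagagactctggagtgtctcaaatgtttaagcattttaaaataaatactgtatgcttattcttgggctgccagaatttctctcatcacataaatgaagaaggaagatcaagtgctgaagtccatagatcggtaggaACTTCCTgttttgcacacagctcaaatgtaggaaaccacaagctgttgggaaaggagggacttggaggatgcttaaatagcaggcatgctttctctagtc
Spp1 held 1 AGGAAGT match starting 112 bases before the start and Lyz2 1 on the other strand starting 100 bases before it, while Ctsd held 2 CACGTG matches (245 and 98 bases before) and 2 GGGCGG matches (204 and 117 bases before). TGANTCA, the AP-1 site, was also searched and was found in none of the 3 windows. AGGAAGT occurred in 8.80% of the 27025 genes with a promoter in the table and in 8.41% of the 10653 matched genes above the level minimum. It occurred in 12.4% of 1168 matched genes that were 2-fold apart with replicate 4 highest and replicate 3 lowest, and in 5.80% of 793 apart in the opposite sense. CACGTG occurred in 6.86% of all promoter genes, in 9.72% of the matched genes above the minimum, in 8.56% of the first of those groups and in 8.20% of the second. GGGCGG occurred in 35.4% of all promoter genes, in 63.9% of the matched genes above the minimum, and in 62.2 and 59.6% of the 2 groups. TGANTCA occurred in 7.82% of all promoter genes, in 5.56% of those above the minimum, and in 7.88 and 6.43% of the 2 groups. The motifs do not overlap one another in these windows, and a match describes letters, not binding.

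General myeloid genes followed the same order with little exception. The 14 genes shared by microglia and macrophages summed to 4197, 4854, 1645 and 6359.9 TPM, and all 14 were highest in replicate 4. Of these, 13 had the order 4, 2, 1, 3 and 12 were 2-fold apart. Aif1, the IBA1 protein, stood at 40.8, 34.98, 26.8 and 45.4 TPM, Csf1r, the receptor that keeps these cells alive, at 197, 244, 151 and 274 and Cd68, a lysosomal membrane protein, at 349, 409, 77.1 and 644. The lysosomal marker thus differed by a ratio of 8.35 and the lineage markers by 1.70 and 1.81. Tyrobp, the adaptor of TREM2, stood at 437, 461, 116 and 613 TPM. Ctss, a lysosomal protease, was the most abundant of the list at 932, 1121, 385 and 1331 TPM. C1qa, C1qb and C1qc, the chains of complement C1q, shared ratios of 3.95, 3.98 and 4.04.

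Genes of resting microglia varied less than the shared and phagocytic myeloid genes, with a median ratio of 1.59 against 3.42 and 4.79. P2ry12, the purine receptor of resting microglia, stood at 90.7, 79.8, 78.5 and 71.6 TPM, with replicate 4 lowest. Tmem119 stood at 34, 37.2, 27.7 and 44.7 TPM and Cx3cr1, the fractalkine receptor, at 95.2, 94.7, 71.8 and 105. Sall1, a transcription factor of microglia that macrophages from blood do not make, stood at 18.4, 19.6, 21.2 and 19.1 TPM, a ratio of 1.15. The microglia-restricted genes P2ry12, Sall1 and Siglech therefore had none of the deep dip in replicate 3 seen for phagocytic genes. Of the 11 homeostatic genes, 3 were 2-fold apart, Olfml3 and Slc2a5 among them, a share of 27.3% beside 27.2% of all genes. Olfml3, a secreted protein of microglia, was lowest in replicate 3 at 60.8, 66.2, 29.3 and 73.4 TPM, whereas Slc2a5, a fructose transporter of microglia, was lowest in replicate 4 at 3.37, 3.04, 3.56 and 1.54.

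Genes of infiltrating monocytes and macrophages had the widest ratio of sums among the 8 most abundant lists. They summed to 3635, 4971, 608 and 6069.6 TPM, a ratio of 9.98, of which 92.7% was Lyz2 at 3427, 4686, 489 and 5564. The ratio of the sum is thus mainly that of Lyz2. By member the median ratio was 2.77, below the 3.42 of the shared and the 4.79 of the phagocytic myeloid genes. Ccr2, the chemokine receptor of inflammatory monocytes, stood at only 4.83, 7.30, 3.39 and 7.98 TPM, and Ly6c2, their surface marker, at 6.78, 7.39, 5.59 and 6.99. The markers of fresh monocytes thus stood far below Lyz2 in every library. Arg1, arginase-1 of wound-type macrophages, stood at 14.6, 22.01, 3.79 and 119 TPM, a ratio of 31.5, with replicate 4 far above the others. Ms4a7, a membrane protein of macrophages from blood, stood at 50.6, 57.8, 7.78 and 63.5 TPM and Mrc1, the mannose receptor, at 10.7, 22.1, 9.65 and 23.96. Of the 11 members above the level minimum, 10 were 2-fold apart, 8 of them with replicate 4 highest and replicate 3 lowest.

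Of the 9 neutrophil genes above the minimum, 2 had the order 4, 2, 1, 3, a share near the 18.0% of all genes. Among the phagocytic genes, 14 of 20 had it. The neutrophil list summed to 263, 330.0, 392 and 407 TPM, and 0 of its 9 genes above the minimum were 2-fold apart, against 27.2% of all genes. S100a9 and S100a8, the calprotectin chains, stood at 96.4, 121, 149.9 and 138 and 62.2, 73.1, 98.6 and 105 TPM. Replicate 3 was high rather than low for both chains. Which of replicates 4 and 3 was the higher turned without the mitochondrial genome, with nuclear protein-coding genes only and with the GC and length trend removed, from 0.05 to -0.06, -0.16 and -0.28 (log2) for the list sum and from 0.08 to -0.03, -0.13 and -0.26 for S100a8. Mmp8, the neutrophil collagenase, had the widest ratio of the list, 2.00, and was lowest in replicate 3 at 9.20, 12.2, 6.95 and 13.9 TPM, as was Csf3r, the receptor for granulocyte growth factor, at 17.9, 24.4, 14.3 and 26.98. Ly6g, the defining surface marker, stood at 1.58, 1.44, 1.05 and 1.27 TPM and Cxcr2 at 0.81, 1.62, 1.66 and 2.05, both under the level minimum. Ngp and Camp, granule proteins made by neutrophil precursors, stood at 33.7, 40, 52.7 and 51.7 and 9.43, 11.6, 15.5 and 15.7 TPM.

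Lymphocyte genes were near the detection limit. Cd3e, a chain of the T cell receptor complex, stood at 0.07, 0.61, 0.16 and 0.94 TPM, Cd3d at 0.11, 0, 0 and 0 and Cd8a at 0.05, 0, 0.06 and 0.03. Only Il7r, which macrophages can also express, passed the minimum among 13 T and NK genes, at 9.31, 13.8, 1.33 and 13.7 TPM. Il7r was lowest in replicate 3, as macrophage genes were, whereas Cd3e was lowest in replicate 1. Trac, a constant segment of the T cell receptor, stood at 11.1, 8.15, 6.52 and 11.3 TPM, under the count minimum. Among 8 B and plasma cell genes only Ighm, the heavy chain of IgM, passed, at 19.6, 18.8, 16.4 and 10.6 TPM.

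Most endothelial genes were highest in replicate 4. The 18 endothelial genes summed to 792, 942, 830.1 and 1082 TPM, 12 of 18 were 2-fold apart and 12 were highest in replicate 4. Pecam1, CD31 of endothelial junctions, stood at 19.1, 27.3, 20.1 and 54.5 TPM, Cdh5, VE-cadherin, at 21.6, 42.5, 15.03 and 66.3 and Cldn5, the claudin of barrier tight junctions, at 50.5, 49.3, 53.3 and 103. Replicate 4 was highest for all 3. Flt1, a receptor of vascular growth factor, stood at 16.5, 28.3, 35.8 and 31.5 TPM, with replicate 3 highest. Ly6c1, Slco1a4 and Mfsd2a, which mark brain and cord capillaries, were also highest in replicate 3, with ratios under 2-fold of 1.48, 1.66 and 1.3. Plvap, which marks leaky vessels without a barrier, stood at 5.33, 8.06, 3.79 and 15.7 TPM, highest in replicate 4 and lowest in replicate 3. Vwf, the clotting factor stored in endothelium, had the widest ratio at 14.9, 39.1, 38.1 and 71.7 TPM, with replicate 1 lowest. Itm2a, the most abundant member, had its lowest value in replicate 3 at 271, 259, 116 and 204 TPM.

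Pericyte and smooth muscle genes summed to 439, 573, 399.7 and 1039 TPM, with 12 of 13 members above the minimum highest in replicate 4 and 9 of 13 2-fold apart. Pdgfrb, the receptor of pericytes and of the fibroblasts that enter the lesion, stood at 20.2, 35.2, 12.9 and 44.8 TPM and Rgs5, a pericyte marker, at 123, 185, 110.2 and 215. Acta2, smooth muscle actin, which contractile fibroblasts also express, stood at 80.6, 96.5, 39.1 and 319 TPM. Vtn, vitronectin of cord pericytes, stood at 79.8, 90.2, 122 and 109 TPM with replicate 3 highest. The ratios of Pdgfrb, Acta2 and Vtn were 3.48, 8.17 and 1.53. Cnn1, calponin of contractile cells, had the widest ratio, 18.1, at 4.60, 3.86, 1.12 and 20.2 TPM. Actg2, smooth muscle gamma-actin, was low but lay among the genes with the strongest weight on the leading axis at 6.36, 7.78, 0.45 and 38.3 TPM.

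Red cell genes were highest in replicate 4. Hbb-bs, a beta-globin chain, stood at 361, 206, 204 and 689 TPM, and the list summed to 736, 402, 407 and 1473, with all 5 genes 2-fold apart. Hba-a1 and Hba-a2 are near-identical copies, as are Hbb-bs and Hbb-bt, so the split between copies is uncertain. Globin RNA, which blood in the tissue carries, was thus 3.67-fold apart between the highest and the lowest library.

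Genes of the fibrotic scar were low in replicate 3 and high in replicates 2 and 4. The 20 fibroblast and scar genes summed to 5469.6, 7883, 3229.9 and 8285 TPM, and 19 of 20 were 2-fold apart, with a median ratio of 5.79. The highest library was replicate 2 for 10 genes and replicate 4 for the other 10. Col1a1 and Col1a2, the chains of type I collagen, stood at 292, 546, 58.6 and 685 and 476, 829, 114 and 898 TPM. Col3a1, type III collagen of young scar, stood at 736, 1189, 144 and 1117 TPM and Fn1, fibronectin, at 194, 440.1, 95.4 and 676. Replicate 3 was the lowest library for each of these 4 genes. Sparc, a matrix-binding protein that astrocytes and vessels also make, held 37.8% of the list sum at 2186, 2508, 2082 and 2620.2 TPM and was the member under 2-fold. Ogn, osteoglycin, was the 1 member not lowest in replicate 3, at 96.1, 123, 86.98 and 54.1 TPM, with replicate 4 lowest. Without Sparc the log2 difference between replicates 4 and 3 of the list sum was 2.30, against 1.36 with it. Col10a1, a collagen of hypertrophic cartilage, was also high on the leading axis, at 19.9, 40.6, 0.36 and 18.1 TPM.

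Scar proteoglycans and tenascins followed 2 patterns. They summed to 1002, 1303, 588 and 1408 TPM, of which 64.1% was Bgn, biglycan, at 669, 884, 223 and 979.6 TPM. Vcan, versican, stood at 44.4, 66.3, 23.9 and 60.7 TPM and Ncan, neurocan of reactive astrocytes, at 19.4, 27.5, 16.8 and 31.7. Bcan, brevican of resting cord, stood at 76.7, 77.1, 93.7 and 81.1 TPM and Acan, aggrecan of perineuronal nets, at 3.61, 4.92, 5.72 and 5.75. Bcan, Cspg5, Ptprz1 and Hapln1 were highest in replicate 3, whereas Bgn, Ncan, Vcan and Tnc were lowest there. Of 12 genes, 4 were 2-fold apart (33.3%, beside 27.2% of all genes).

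Neuronal genes moved opposite to macrophage and scar genes. The 20 general neuronal genes summed to 5162, 4788, 8739.9 and 3481 TPM, all 20 were highest in replicate 3 and 16 were 2-fold apart, 15 of them with replicate 4 lowest. The order 3, 1, 2, 4 held for 18 of 20, against 9.01% of all genes. Snap25, of the synaptic fusion machinery, stood at 1197, 1003, 2065 and 527 TPM, from 10960.0 to 40874 estimated counts. Rbfox3, the NeuN protein of neuronal nuclei, stood at 28.7, 26.3, 52.9 and 17.3 TPM and Nefl, the light neurofilament of axons, at 422, 397, 653 and 250.4. The synaptic vesicle genes Syt1, Syp and Vamp1 had ratios of 4.04, 3.07 and 2.71, and the neurofilament genes Nefl, Nefm and Nefh had 2.61, 2.34 and 2.10. Tubb3, a tubulin of neurons, stood at 192, 184, 311 and 181 TPM and Gap43, of growing axons, at 156, 148, 209 and 139. These 2 genes lay under 2-fold, with replicate 3 still highest. Elavl4, an RNA-binding protein of neurons, had the widest ratio, 4.60. Meg3, a long non-coding RNA of neurons that other cells also express, departed from the order at 129, 221, 338 and 239.5 TPM.

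Transmitter genes behaved as the general neuronal genes did. The 14 genes of excitatory and inhibitory neurons summed to 684, 617, 1076 and 409.5 TPM, all were highest in replicate 3, and 13 were 2-fold apart. Slc17a6, the vesicular glutamate transporter of cord neurons, stood at 55.4, 52.02, 101 and 27.8 TPM, Slc6a5, the glycine transporter of inhibitory neurons, at 46.5, 62.6, 97.4 and 32.5 and Gad1, which makes GABA, at 79.2, 58.1, 126 and 31.9. Their ratios were 3.63, 3.00 and 3.96, and that of Slc32a1, the vesicular transporter of inhibitory neurons, was 2.61. Penk, proenkephalin of dorsal horn cells, was the most abundant at 141, 130.2, 186 and 90.3 TPM.

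Motor neuron genes were low but shared the pattern. They summed to 144, 163, 324 and 103 TPM, and 7 of 8 members above the minimum were highest in replicate 3. Chat, which makes acetylcholine, stood at 4.59, 5.11, 10.2 and 3.78 TPM, Slc18a3, its vesicular transporter, at 8.61, 7.40, 14.3 and 6.75 and Slc5a7, the choline transporter, at 13.8, 15.7, 26.7 and 9.59. Isl1 stood at 0.74, 1.61, 2.15 and 0.48 TPM and Mnx1 at 0.31, 0.28, 0.28 and 0.31, under the minimum. Calca, the CGRP peptide of sensory and motor neurons, had the widest ratio at 40.2, 52.98, 129.5 and 27.8 TPM and 34.2% of the list sum, and Prph stood at 30.1, 28.3, 59.1 and 15.7. Both are also made by neurons of the dorsal root ganglion.

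Ganglion genes were found in 2 of the 4 libraries. The 7 markers of sensory neurons, whose cell bodies lie outside the cord, summed to 0.790, 12.7, 29.8 and 1.31 TPM. Pirt stood at 0.12, 3.19, 8.47 and 0.16 TPM, Scn10a, a sodium channel of nociceptors, at 0.01, 1.29, 3.09 and 0 and Avil, advillin, at 0.28, 3.65, 7.44 and 0.43. Mrgprd stood at 0, 0.57, 1.44 and 0 TPM and Trpv1, the capsaicin receptor, at 0, 0.66, 1.37 and 0.28. Replicates 2 and 3 held these transcripts and replicates 1 and 4 were at or near 0. Replicate 2 had ganglion RNA without high levels of general neuronal genes, and replicate 3 had both. In replicate 3 the ganglion markers summed to 29.8 TPM and the general neuronal genes to 8740 TPM. These 7 markers do not measure all ganglion RNA, and its part in the neuronal, Calca and Prph values was not tested.

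Tissue from outside the cord was otherwise scarce. Skeletal muscle genes summed to 21.4, 26.1, 33.1 and 12.9 TPM, with Ckm, muscle creatine kinase, at 1.41, 2.65, 2.99 and 0.09. Adipocyte genes summed to 5.75, 8.56, 11.2 and 44.4 TPM, with replicate 4 well above the others, and Adipoq, adiponectin, stood at 0.23, 0, 0.88 and 4.08. Car3, which fat and muscle express, made up 83.7% of that sum. Plin1, the perilipin of fat droplets, stood at 0.03, 0.31, 0.15 and 1.93 TPM and Lep, leptin, at 0, 0, 0.03 and 0.06. The part of fat or blood in the high vascular values of replicate 4 was not tested.

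Dividing cells followed the macrophage order with larger ratios. The 13 cell division genes summed to 343, 383, 119.6 and 678 TPM, all 13 were 2-fold apart, and in all 13 replicate 4 was highest and replicate 3 lowest (10.9% of all genes). Mki67, the Ki-67 protein, stood at 9.78, 20.8, 2.85 and 37.2 TPM, Top2a, the topoisomerase of dividing cells, at 33.9, 47.3, 8.14 and 89.8 and Cdk1, the mitotic kinase, at 38.5, 39.8, 7.32 and 108. The median ratio was 10.7. Pcna, the replication clamp that resting cells also contain, was the most abundant and least variable, with a ratio of 2.06. Ccnb2, a mitotic cyclin, had the widest, 20.9.

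Inflammatory mediators were low in absolute level at this time. Il1b, interleukin-1 beta, stood at 1.71, 1.91, 0.85 and 2.76 TPM, Tnf at 1.90, 0.22, 0.34 and 0.19, Il6 at 0.04, 0.68, 0.22 and 0.77 and Il10 at 0, 0, 0 and 0.08. Ccl2, the chemokine that draws monocytes, stood at 23.6, 14.7, 3.36 and 35.9 TPM, and Tgfb1, the fibrogenic growth factor, at 35.6, 52.3, 13.6 and 68.7. The 4 cytokines named first were thus below Ccl2 and Tgfb1 in every library. Il1rn, the interleukin-1 receptor antagonist, stood at 15.9, 16.8, 1.23 and 42.1 TPM, with the list's widest ratio, 34.2. Ccl3 and Ccl4, chemokines of activated microglia, were highest in replicate 1, at 31.1, 9.82, 4.92 and 15.3 and 16.9, 7.24, 4.23 and 12.1 TPM. All 8 members above the minimum were 2-fold apart.

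Immediate early genes stood at modest levels. Fos stood at 24.3, 30.03, 22.8 and 40.2 TPM, Egr1 at 15.5, 24.9, 15.5 and 24.6, Junb at 13.2, 27.04, 8.29 and 45.6 and Atf3, a stress and axon-injury factor, at 37.1, 31.2, 33.4 and 39.3. They summed to 114, 149, 102 and 197 TPM, and 3 of 8 were 2-fold apart, with Junb widest at 5.50. Atf3 was nearly level, with a ratio of 1.26.

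Across all genes, 1 pattern carried most of the difference between the 4 libraries. Of the variance of log2(TPM + 1) over 14116 genes, the leading axis held 72.8%, the second 18.6% and the third 8.59%, which is all that 4 libraries allow. On the leading axis replicate 3 scored 53.3, replicate 1 4.53, replicate 2 -14.3 and replicate 4 -43.5. Replicates 3 and 4 were therefore its ends. The axis held 72.0% of the variance when only the 13822 genes in none of the lists were used, with the same order of libraries. After removal of the GC and length trend it held 78.0%, again in the same order. The heaviest weights at the end of replicate 4, among genes with a mean of at least 10 TPM and leaving out pseudogenes, predicted, ribosomal protein and mitochondrial genes, were those of Rgs1, Actg2, Arg1, Col10a1, Il1rn, Cd36, Gpnmb, Spp1, Hmox1 and Clec4n. Rgs1, a regulator of G protein signalling in leukocytes, stood at 19.8, 146, 4.01 and 127 TPM, and Clec4n, the dectin-2 receptor of macrophages, at 14.01, 24.7, 2.03 and 36.8. Hmox1, the heme-degrading enzyme, stood at 193, 284, 46.1 and 709 TPM. Except for Actg2 and Col10a1, these 10 genes are ones that macrophages are known to express. With the same genes left out, the heaviest at the end of replicate 3 included Etnppl, Calca, Elavl4, Nrn1, Sap18, Ptgds, Rit2, Ebf3 and Gad1. Etnppl, an astrocyte enzyme of phospholipid metabolism, stood at 16.2, 16.8, 54.8 and 12.2 TPM, and Ptgds, the prostaglandin D synthase of meninges and oligodendrocytes, at 379, 469, 1363 and 343. Nrn1, a neuritin of neurons, stood at 47.8, 40.6, 90.6 and 20.9 TPM, and Rit2, a neuronal GTPase, at 84.02, 60.4, 136 and 33.9. The named genes of this end were mostly genes known from neurons, beside Etnppl, Ptgds and Sap18, a nuclear cofactor of most cells.

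**Figure D3:**
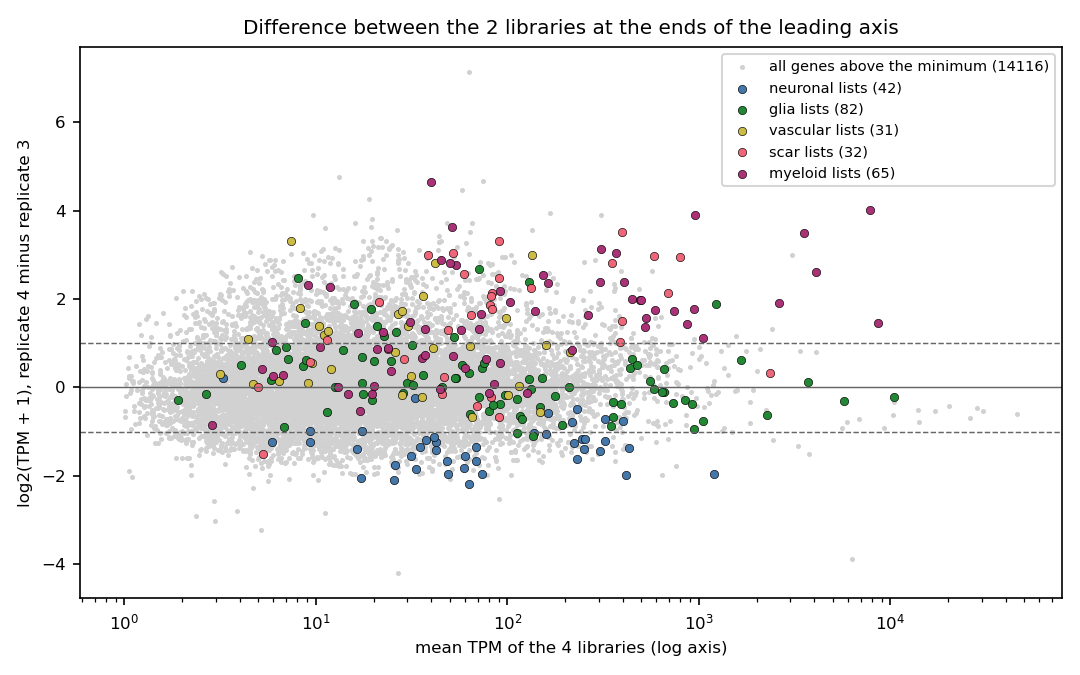
Difference in log2(TPM + 1) between replicate 4 and replicate 3 (y axis, dashed lines at 2-fold) against mean TPM (x axis, log scale) for the 14116 genes above the minimum in grey and members of 5 classes of lists in colour. Neuronal genes lie below 0, with 1 exception (Slit3), most scar and myeloid genes lie above 0, and glial genes spread around it.

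The lists separate along this axis as shown by their median deviation from the gene means. The neuronal class (42 genes above the minimum) had medians of -0.03, -0.11, 0.75 and -0.59 on the log2 scale, and 41 of its 42 genes were highest in replicate 3. The myeloid class (65 genes) had 0.11, 0.25, -0.88 and 0.55, the scar class (32 genes) -0.10, 0.52, -1.11 and 0.46 and the vascular class (31 genes) -0.31, 0.07, -0.19 and 0.65. Replicates 3 and 4 stood at opposite ends in the neuronal and myeloid classes. In the scar class replicate 3 was lowest and replicates 2 and 4 were nearly equal. In the vascular class replicate 1 was lowest, but so it was over all genes, with medians of -0.125, 0.045, 0.020 and 0.097. Replicate 1 was the lowest library for 38.7% of all genes. The glial class (82 genes) had -0.07, 0.05, -0.04 and 0.08, and its summed TPM differed by a ratio of 1.07, the least of these classes. The myeloid and scar classes together had 66 of 97 genes (68.0%) highest in replicate 4, beside 43.2% of all genes. Under the other scalings and with the trend removed both shares were lower, at 54.7 to 61.9% of these members beside 29.7 to 37.9% of all genes.

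Ratios formed inside a library do not depend on its scaling. The general neuronal sum over the fibroblast and scar sum was -0.08, -0.72, 1.44 and -1.25 on the log2 scale, a range of 2.69. Over the shared myeloid sum it was 0.30, -0.02, 2.41 and -0.87, a range of 3.28. The neuronal list sum was thus 2.71 times the scar list sum in replicate 3 and 0.420 times in replicate 4. Such ratios compare sums of chosen markers, so their absolute level depends on the members and is no ratio of tissue RNA. Mature oligodendrocyte over neuron was 2.22, 2.25, 1.51 and 2.63, so the myelin list sum exceeded the neuronal list sum in every library. Phagocytic over homeostatic microglial genes was 4.24, 4.48, 3.67 and 4.82, and reactive over homeostatic astrocyte genes was -0.31, -0.06, -0.67 and 0.43. These last ratios put the libraries in the order 4, 2, 1, 3, the reverse of the neuron ratios. The mitochondrial share of TPM had the order of the neuron ratios (18.0, 17.7, 14.3 and 11.3% in replicates 3, 1, 2 and 4), and its part in levels given as TPM is shown by the rescaled values in the closing section.

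**Figure D4:**
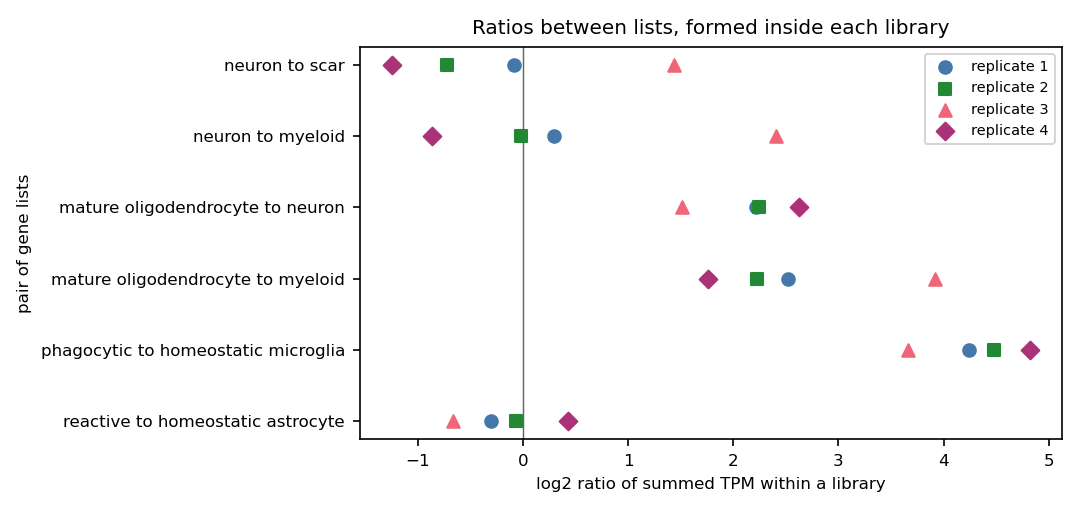
Log2 ratio of the summed TPM of 2 lists within each library (x axis) for 6 pairs of lists (y axis), with 1 coloured marker per replicate. Replicate 3 lies at the neuronal end of both neuron ratios, at 1.44 and 2.41, and replicate 4 at the other, at -1.25 and -0.87.

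A further 11 groups of genes were taken from known pathways after the values of the lists had been seen. Lipid uptake and efflux genes summed to 997, 1375, 421 and 1619 TPM, with 11 of the 12 above the minimum in the order 4, 2, 1, 3. Cd36, the scavenger receptor for oxidised lipid, stood at 158, 244, 15.1 and 246 TPM, Plin2, the coat protein of lipid droplets, at 262, 348, 63.2 and 470.5 and Abca1, the cholesterol exporter, at 63.95, 119, 48.6 and 128. Cholesterol synthesis genes ran the other way, with 10 of 12 highest in replicate 3 and 0 of 12 2-fold apart. Their sum was 695, 630.3, 780.0 and 489 TPM, and Hmgcs1, an early enzyme of the pathway, stood at 214, 197, 232 and 138.

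Of 11 iron and heme genes above the minimum, 7 were 2-fold apart, 8 were highest in replicate 4 (as 43.2% of all genes were) and 5 had the order 4, 2, 1, 3. Their sum, most of it Fth1, had a ratio of 1.3, and its log2 difference of 0.32 between replicates 4 and 3 turned to -0.04 with the GC and length trend removed. Ftl1, the ferritin light chain, stood at 2934, 3311, 668 and 5323 TPM, a ratio of 7.97, while Fth1, the heavy chain, stood at 10587, 8721, 12368 and 9875 with replicate 3 highest. The heavy-to-light balance therefore differed between replicates 3 and 4. Ferritin genes have many processed copies in the genome, so their split is uncertain. Slc11a1, an iron transporter of phagosomes, stood at 45.3, 50.03, 14.9 and 96.01 TPM and Tfrc, the transferrin receptor, at 65.8, 75.6, 101 and 62.9, the 2 in opposite senses. Hamp, hepcidin, was listed at 0 in all 4 libraries.

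Antigen presentation was low in replicate 3. MHC class II genes summed to 200.1, 213, 58.7 and 231 TPM, and Cd74, the invariant chain, stood at 76.8, 80.8, 22.9 and 80.9. MHC class I genes summed to 1663, 1730.0, 861 and 1699 TPM, and B2m, their light chain, stood at 1222, 1156, 561 and 1057. Replicates 1, 2 and 4 lay close together for Cd74 and for both sums, of which B2m made up most for class I. Among members above the minimum, 4 of 6 class II and 6 of 8 class I genes nevertheless had the order 4, 2, 1, 3, as 18.0% of all genes did. H2-K1 and H2-D1, heavy chains of class I, stood at 169, 228, 123 and 243 and 167, 213, 108 and 245 TPM. Interferon-response genes had another pattern, with Ifit3 at 42.97, 33.02, 29.8 and 14.4 TPM and Isg15 at 14.8, 6.61, 8.51 and 9.52, highest in replicate 1. Of 11 such genes, 9 were 2-fold apart, and only 2 had the order 4, 2, 1, 3 (Bst2 and Ifitm3). Complement genes summed to 1899, 2339.8, 1092 and 3050.2 TPM, with 9 of 13 2-fold apart. C4b and C3, which astrocytes also make, stood at 94.1, 126, 137 and 146 and 69.3, 108, 112 and 98.8 TPM and did not dip in replicate 3, whereas C1q chains did.

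Genes that limit axon growth were level as a sum, which Rtn4 and Mag dominate, but not in every member. Myelin-associated inhibitors and their receptors summed to 1379.7, 1454, 1434 and 1396 TPM, a ratio of 1.05. Rtn4, the Nogo gene, stood at 680.4, 719.5, 689.6 and 639.8 TPM and Omg, oligodendrocyte myelin glycoprotein, at 108, 94.2, 127 and 76.2. Axon guidance ligands summed to 272, 321, 307 and 289 TPM, with Sema4d, a semaphorin of oligodendrocytes, the most abundant at 107, 114, 86.2 and 96.5. Of the 8 inhibitor and receptor genes, 2 were 2-fold apart (25.0%, near the 27.2% of all genes), Pirb, an immune receptor, with a ratio of 6.91 and Rtn4r, the Nogo receptor, with 2.14. Of the 12 guidance ligands, 2 were, Ntn1 with 2.61 and Slit1 with 2.25. Matrix proteases and inhibitors summed to 779.9, 1093, 594 and 1182 TPM, and Mmp14, a membrane-bound collagenase, stood at 131, 229.8, 42.5 and 259 TPM while Mmp9 stood at 4.87, 6.27, 5.74 and 7.04. Mmp13, a collagenase, stood at 26.3, 26.3, 1.21 and 16.3 TPM, with replicates 1 and 2 highest. Among growth factors Igf1, which macrophages make, was the most abundant at 97.2, 149, 33.9 and 132 TPM, Bdnf stood at 4.08, 3.93, 4.98 and 1.96 and Cntf, of astrocytes and Schwann cells, at 32.1, 30.4, 31.01 and 32.9. Cntf was level in all 4 libraries, with a ratio of 1.08.

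**Figure D5:**
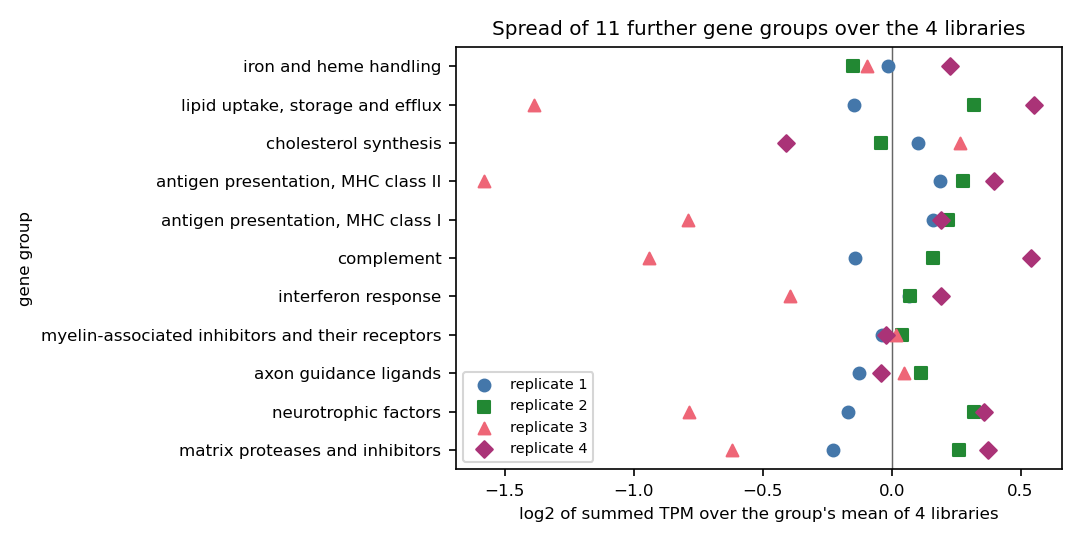
Log2 of the summed TPM of 11 gene groups over the group's mean of the 4 libraries (x axis), with 1 coloured marker per replicate and the groups on the y axis. Replicate 3 lies farthest to the left for lipid handling, antigen presentation and complement, and the markers of myelin-associated inhibitors nearly coincide.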

How the data were processed

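Bulk paired-end RNA sequencing of lesion tissue was read for the 4 SCI7 libraries, grouped by the label of each sample. The submitters' processing notes name fastp 0.23.4 for trimming, HISAT2 2.2.1 with build GRCm39, RSEM 1.3.3 for quantification, and DESeq2 1.42.0, limma and edgeR. Kit, RNA selection and strand use are not given in the sources used here, so overlapping antisense genes cannot be separated. The authors deposited TPM (the values described), FPKM (used as an alternative scale) and expected counts, which are estimated and were used unrounded for depth and the count minimum. Each table also has 3 columns of group means made by the authors, which were not used.

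Genes were kept at a mean of at least 1 TPM and 50 counts. Lists were described by the sum of TPM and by members at least 2-fold apart between the highest and lowest library. Principal axes were computed on log2(TPM + 1) centred per gene, in Python 3.11.15 with numpy 2.4.6, and tested on simulated data. Scaling factors came from edgeR 4.0.16 (TMM) and DESeq2 1.42.0 in R 4.3.3. The trend on GC content and length was a natural spline with 5 degrees of freedom, and the transcripts came from an older annotation than the authors' build. The 4 libraries were no duplicates, since pairs differed by a chi-square per gene of 25.4 to 153. The 525 genes without a symbol held 0.0786 to 0.109% of counts and stayed in the totals.

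The members and lists were chosen with earlier results of these data known. The text names the first 4 genes of each list, its most abundant and most variable member, the 15 most abundant genes and the 10 genes with the heaviest weights at each end of the leading axis; other genes named were chosen after their values were seen. Some genes that these rules would name are not reported here. Of these rules, 1 listed gene, Fcrls, was not matched to the table. With no contrast between groups, no test between groups was made, and Dixon's limit was used only to pick values in which 1 library lay far from the others.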

Additional observations from a re-analysis of the deposited data

Results flagged for a closer look

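Values were set apart where 1 library lay far from the other 3, by a gap to the nearest of them that passed Dixon's 95% limit for 4 samples as a share of the range. Chance alone sets apart about 1 in 20 groups, so some of the values below can be due to chance. This held for 13 of 183 values of the lists and genes named by rule, 7 of them high in replicate 4, 5 high in replicate 3 and 1 high in replicate 1, and for 3 values of the further groups.

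High in replicate 4 were an endothelial gene, a globin, a macrophage enzyme, the adipocyte list and members of that list. No other endothelial or globin gene named by rule passed the limit. Cldn5, of endothelial tight junctions, stood at 103 TPM there and at 49.3 to 53.3 in the other libraries. Hbb-bt, a globin, stood at 97.7 TPM against 19.8 to 31.5, and Arg1 at 119 against 3.79 to 22.01. The adipocyte list summed to 44.4 TPM against 5.75 to 11.2, and Car3 made up 83.7% of its mean sum, so the list and Car3 are not separate values. Its members Car3 (35.2 TPM), Cidec (3.08 TPM) and Plin1 (1.93 TPM) were each high in that library.

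High in replicate 3 were a myelin gene, a neuronal gene and genes of astrocytes and meninges. Mobp stood at 2963 TPM against 1925 to 2089 and Tubb3 at 311 against 181 to 192. Ptgds stood at 1363 TPM against 343 to 469. Slc1a3 stood at 83.3 TPM against 54.5 to 59.2, and Etnppl at 54.8 against 12.2 to 16.8.

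High in replicate 1 was Tnf, at 1.90 TPM against 0.19 to 0.34, a level under the count minimum. Low in replicate 3 were Cd74 (22.9 TPM against 76.8 to 80.9), H2-Aa (8.59 TPM against 39.0 to 42.1) and the MHC class I sum (861 TPM against 1663 to 1730.0).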

How the results depend on the processing

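No paired analysis was possible because the data hold 1 group, in which each replicate number occurs once. No list or gene that differed at least 2-fold between replicates 4 and 3 changed sign under the alternatives tried, while 3 lists and 20 genes with smaller differences did so under another scaling or with the trend removed. Without the mitochondrial genome, the median gene moved by 0.28, 0.22, 0.29 and 0.17 (log2), and with nuclear protein-coding genes only by 0.58, 0.47, 0.58 and 0.37. The mature oligodendrocyte sum, 23276 TPM, was then 27569 and 33067, and the endothelial sum, 911, was 1073 and 1281; with nuclear protein-coding genes only the reactive astrocyte sum, 6392, was 8965 and the scar sum, 6217, was 8654. Without its most abundant member, these 4 sums were 12785, 699, 2703 and 3868. The log2 difference between replicates 4 and 3 of the mature oligodendrocyte sum, -0.21, was -0.32 without the mitochondrial genome, -0.42 with nuclear protein-coding genes only and -0.32 with the GC and length trend removed. That of the reactive astrocyte sum, 0.57, was 0.30 with the trend removed and 1.17 without Gfap, that of the endothelial sum, 0.38, was 0.17 with nuclear protein-coding genes only, and that of the scar sum, 1.36, was 2.30 without Sparc. The cause of the moves under the trend was not tested; the others follow from what was left out.

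The count of genes 2-fold apart, 3839, was 1563 without replicate 3 and 2205 without replicate 4, and ran from 1563 to 3672 over the libraries left out, so replicates 3 and 4 set it. It was 9217 of 21007 genes with no minimum beyond a value above 0. The share on the leading axis, 72.8%, was 78.0% with the trend removed, 67.3% with no minimum and 74.7 to 88.7% with a library left out. With a library left out fewer axes remain to share the variance, so the last values are not directly comparable with 72.8%. The mean neuron to scar log2 ratio, -0.15, was 1.46 as the difference of medians over members and ran from -0.68 to 0.21 with a library left out, while its span between replicates 3 and 4 was 2.65 to 3.48 in all settings tried. The neuron to myeloid ratio, 0.45, ran from -0.20 to 0.90 with a library left out. Its span was 3.14 to 3.28. The alternatives with the trend removed on sums and ratios, the genes in no list and 3 of the scalings for members highest in a library were added after the data were seen. For single values, 1 list sum or gene level in a setting moved by more than the spread between libraries in 218 of 3001 cases.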

Other observations

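The second axis set replicate 1 (score 29.9) apart from the others (-2.47, -14.1 and -13.3). Malat1, a nuclear long non-coding RNA, stood at 339, 994, 869 and 916 TPM and Neat1, which builds nuclear paraspeckles, at 151, 299.6, 329 and 477, both lowest in replicate 1. Vwf had the same low library. At the other end, among genes with a mean of at least 10 TPM, stood processed pseudogenes, the unprocessed pseudogene Gm28439 and a long non-coding RNA. Ccl3, Mmp12, Mmp13, Col10a1 and Atp6v0d2 stood at that end too. The deviation of genes from their mean had its strongest correlation with transcript length in replicate 1 (-0.44 across 13173 genes), and its part in this axis was not tested.

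Transcripts of the mitochondrial genome were uneven among themselves. mt-Co1, a subunit of cytochrome oxidase, stood at 51034, 45001, 53096 and 34902 TPM and mt-Nd1, of complex I, at 16716, 13736, 16481 and 9596. mt-Co2 stood at only 135, 137, 274 and 171 TPM and mt-Atp6 at 3493, 2497, 2604 and 1149.8. Unprocessed pseudogenes, led by nuclear copies of mitochondrial genes, held up to 11.8% of TPM. Reads of a gene and its copy can be split between them, so levels of single mitochondrial genes are uncertain. Most of these genes were lowest in replicate 4, with mt-Co2 and mt-Nd4l as the exceptions, which were lowest in replicate 1.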
